A study of Mus musculus with 2 samples.

Results

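The cells described here are the interferon-high fraction of the Krt20-positive, Ptprc-negative cells of mouse subcutaneous tumours. Krt20 encodes an intestinal-type keratin and Ptprc the leukocyte antigen CD45. Barcodes with at least 300 genes detected, at most 20% mitochondrial UMIs (unique molecular identifiers, one per captured RNA molecule), 1 or more Krt20 UMIs and 0 Ptprc UMIs formed a gate of 8734 cells. Each gate cell was scored by the share of its UMIs that came from 7 interferon-induced genes (Ifit3, Usp18, Iigp1, Igtp, Gbp2, Gbp3 and Tgtp1), and the top 10% of both libraries pooled were taken as members. This gave 873 members of 8734 gate cells, out of 16465 barcodes in the series.

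The study compared tumours of mice on a diet without serine and glycine with tumours of mice on a control diet, with 1 10x Genomics library of gene expression and T cell receptors for each diet. The labels give no strain, tumour cell line, age, time on diet or number of mice per library, so a library may pool animals or come from a single one. The serine/glycine-free library held 591 members among 4613 gate cells and the control library 282 members among 4121 gate cells. With 1 library per diet, differences between diets have no replicate check, and no p-value is given for them. Differences between members and the rest of the gate carry no p-value either, because the members were chosen on values of the same cells. All intervals are exact 95% intervals that cover counting error in these libraries and nothing else.

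The serine/glycine-free matrix held 7999 barcodes and 157234945 UMIs, and the control matrix 8466 barcodes and 161332426 UMIs. Members were shallower than the rest of the gate: the median was 17788 UMIs per member and 23950 per remaining cell in the serine/glycine-free library, and 21962 against 25327 in the control library. Members carried 2.56% mitochondrial UMIs at the median in the serine/glycine-free library, where the rest carried 2.01%. In the control library these medians were 1.99% and 1.82%. The libraries shared 104 barcode sequences, 33 of them in the gate of both.

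Interferons are secreted alarm proteins. Type I interferons, such as interferon beta, and interferon gamma bind different receptors, and both act through Janus kinases that phosphorylate STAT transcription factors. Type I interferons chiefly act through interferon-stimulated response elements (ISRE) in the promoters of antiviral genes, whereas interferon gamma chiefly acts through gamma-activated sites (GAS). In mouse cells the guanylate-binding proteins (Gbp) and immunity-related GTPases are strongly induced by interferon gamma and attack the membranes of intracellular pathogens. In tumour cells the same response raises the antigen-presenting machinery seen by CD8 T cells and the checkpoint ligand PD-L1, which restrains them.

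Some of the genes higher in these cells hold such elements in their promoters, and the stretches shown were picked because they do. The following stretches from the 250 bases before a RefSeq gene start (assembly GRCm38.p6, read 5′ to 3′ on the gene's strand) show an ISRE-type core GAAANNGAAA, or its reverse complement TTTCNNTTTC, and the GAS-type core TTCNNNGAA, all in capitals. Ifit3 and Isg15 stand for the antiviral genes, Gbp2 for the guanylate-binding proteins, Igtp, Tgtp1, Tgtp2 and Irgm2 for the immunity-related GTPases, B2m, which was not called, for antigen presentation, and Irf1 for a gene with a GAS-type core and no ISRE-type core in this window.
Ifit3 (chr19:34583361-34583428, plus strand): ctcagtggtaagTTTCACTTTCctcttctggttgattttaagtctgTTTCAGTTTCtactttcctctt
Isg15 (chr4:156200863-156200908, minus strand): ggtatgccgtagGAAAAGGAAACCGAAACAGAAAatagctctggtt
Gbp2 (chr3:142620592-142620625, plus strand): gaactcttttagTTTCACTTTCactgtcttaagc
Igtp (chr11:58199499-58199543, plus strand): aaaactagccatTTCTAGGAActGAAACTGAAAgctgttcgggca
Tgtp1 (chr11:48992302-48992346, minus strand): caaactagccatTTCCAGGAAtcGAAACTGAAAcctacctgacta
Tgtp2 (chr11:49064261-49064305, minus strand): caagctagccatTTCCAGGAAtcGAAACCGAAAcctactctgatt
Irgm2 (chr11:58214890-58214934, plus strand): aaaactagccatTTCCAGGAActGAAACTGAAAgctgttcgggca
B2m (chr2:122147536-122147569, plus strand): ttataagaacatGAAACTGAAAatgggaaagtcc
Irf1 (chr11:53769912-53769944, plus strand): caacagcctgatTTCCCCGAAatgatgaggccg

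In Ifit3 2 ISRE-type cores lie apart on the reverse strand, and in Isg15 3 of them overlap in a row. Igtp, Tgtp1, Tgtp2 and Irgm2 share a composite in which the ISRE-type core begins 11 bases after the start of a GAS-type core. Of 32851 RefSeq promoter windows of 250 bases, 2.98% held an ISRE-type core on either strand and 7.02% a GAS-type core, which reads the same on both strands. The composite with the 11-base offset, a pattern searched for after it was seen in these genes, was searched in this orientation alone. It occurred in 5 windows (0.0152%), those of Igtp, Irgm2, Tgtp1, Tgtp2 and Gm12185. The reverse orientation was not searched. An ISRE-type core was found in 37.0% of the 73 windows of 60 matched genes among the 83 genes higher in members (below), against 2.97% of the 5698 windows of all tested genes that matched, so most windows of the called genes held none. A GAS-type core was found in 13.7% of the windows of the called genes, against 5.35% of those of all tested genes. Of 22 windows of the class I presentation list 3 (13.6%) held an ISRE-type core. Such a match describes these letters and is neither a bound site nor a cause.

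The 7 genes of the rule chose the members, so their levels are given as a description. The lowest member scores were 1172 and 1173 counts-per-million (CPM, here rule UMIs scaled to the cell's total) and the highest scores outside were 1170 and 1170, so the boundary cuts through a continuum, with 109 members within 10% above it and 103 cells within 10% below it. Gbp2 supplied 45.7% of the members' rule UMIs in the serine/glycine-free library and 43.8% in the control library. Next came Iigp1, an immunity-related GTPase, with 20.4% and 15.4%. Ifit3, an RNA-sensing antiviral protein, supplied 5.39% and 8.11%, and Usp18, the protease that removes ISG15 and damps type I interferon signalling, 3.88% and 5.61%. No member lacked a UMI of the 5 GTPase genes, whereas 185 of 591 members (31.3%) in the serine/glycine-free library and 73 of 282 (25.9%) in the control library had no Ifit3 or Usp18 UMI. The rule therefore weighted the cells towards the GTPases.

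To measure the rule genes on UMIs that had not chosen the cells, each cell's UMIs were split at random into 2 portions, one to choose members and the other to measure them. Both portions came from the same cells, and the median member had 39.0 (serine/glycine-free) or 42.0 (control) rule UMIs. High levels in the second portion were therefore likely from the outset, and the split addresses the sampling of UMIs alone. Of the cells chosen on the first portion, 79.3% of 598 in the serine/glycine-free library and 78.9% of 275 in the control library were also in the top 10% on the second, against 3.06% and 1.53% of the cells not chosen. In the unused portion Gbp2 stood at 1001 CPM in members and 110 in the rest under the serine/glycine-free diet, and at 902 and 64.6 CPM under the control diet. Ifit3 stood at 109 and 13.4 CPM under the serine/glycine-free diet, and at 165 and 7.65 CPM under the control diet.

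The keratin gate did not mark ordinary epithelial cells. Of 10 epithelial markers Krt20, which the gate required, was the sole one to reach a mean of 20 CPM: Epcam had 0 UMIs in the members of both libraries, Cdh1 (E-cadherin) had 1 and 0, and Krt19 had 1 and 0. Krt18 averaged 11.3 CPM in members and 20.5 CPM in the rest under the serine/glycine-free diet, against 17.3 and 24.5 CPM under the control diet. Of 8 fibroblast markers Col1a1, Col1a2, Col3a1 and Dcn passed the filter, with Col1a2 at 514 and 455 CPM and Dcn at 518 and 341 CPM in the members of the serine/glycine-free and control libraries, while Lum, Pdgfra, Pdgfrb and Postn stayed under it. The cells are therefore named here by their rule, as interferon-high Krt20-positive cells. Markers of T cells summed to 2.52 CPM in serine/glycine-free members and 0.464 CPM in control members, and a T cell receptor contig was found in 1 of 591 and 0 of 282 members; 0 of 282 allows a share of up to 1.06%.

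Macrophage RNA differed between the member groups. The 14 macrophage and monocyte markers summed to 92.8 CPM in members and 117 CPM in the rest under the serine/glycine-free diet, and to 170 CPM in members and 126 CPM in the rest under the control diet. In the control library 96.1% of the members' C1qa UMIs came from the 5 highest of 9 cells. Of the members, 14.2% of the serine/glycine-free and 12.1% of the control library had a UMI of at least 1 of 8 immune genes, against 14.5% and 15.5% of the remaining gate cells. Without all such cells the share ratio between diets was 1.81 and 82 genes were called higher, 80 of them also called with these cells. Median doublet scores were 0.045 in members and 0.0464 in the rest under the serine/glycine-free diet, and 0.0451 and 0.0511 under the control diet.

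Cells as rich in the rule genes were also found outside the gate. Above the same boundary lay 18.3% of the cells with neither Krt20 nor Ptprc in the serine/glycine-free library, against 12.5% in the control library, and 17.9% against 22.5% of the Ptprc-positive cells. Among cells with a receptor contig the order of the diets was the reverse of that in the gate, with 35 of 247 such cells (14.2%) above the boundary under the serine/glycine-free diet, against 74 of 256 (28.9%) under the control diet. These contig-bearing cells were shallow, with medians of 5697 and 2697 UMIs.

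**Figure D1:**
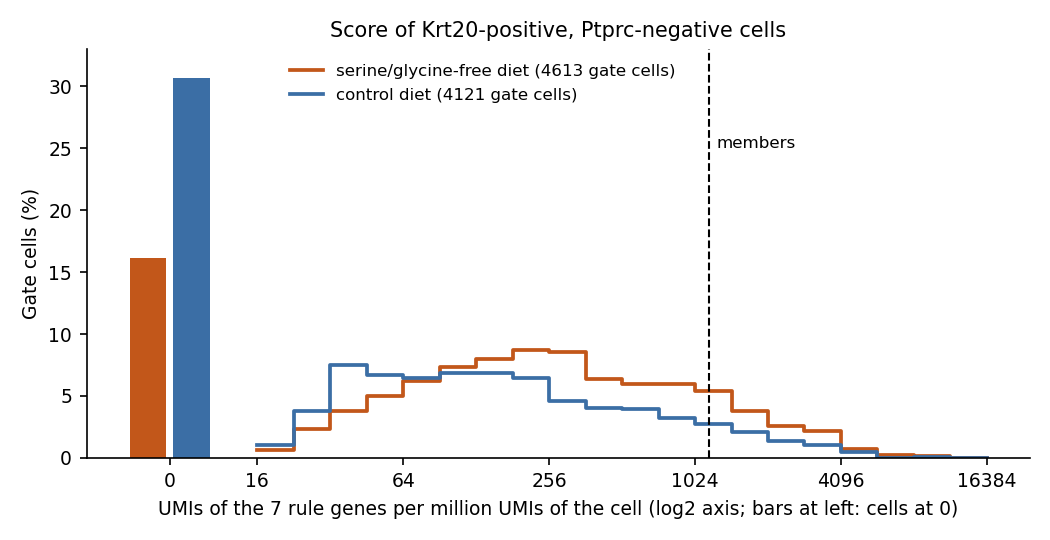
Distribution of the 7-gene score over gate cells of each library, as the percentage of gate cells per step of 0.5 on a log2 axis of CPM of rule UMIs, with cells at a score of 0 as bars on the left and the boundary for members as a dashed line. The serine/glycine-free library has fewer cells at 0 (16.1% against 30.7%) and more cells right of the boundary; 3 cells with scores under 16 are not drawn.

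Interferon-high cells were nearly 2 times as frequent in the serine/glycine-free library. Members made up 12.8% of its gate cells (11.9 to 13.8), against 6.84% of the gate cells of the control library (6.09 to 7.66), or 1.87 times the control share (1.62 to 2.17). The difference was also seen below the boundary: the median score was 185 CPM of rule UMIs in the serine/glycine-free gate and 64.2 in the control gate. Cells with no rule UMI at all made up 742 cells or 16.1% of the serine/glycine-free gate and 1267 cells or 30.7% of the control gate. After every cell was thinned to 5000 UMIs, leaving out 74 and 57 shallower cells, 58.2% of serine/glycine-free gate cells and 40.5% of control gate cells kept a rule UMI. The ratio of member shares ranged from 1.79 to 2.02 over the other settings that let it vary, except that it was 1.60 when cells were chosen by Ifit3 and Usp18 alone.

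Relative to the rest of the gate, members had higher levels of a broad set of interferon-induced genes in both libraries, with larger ratios in the control library. UMIs were summed per library over members and over the rest, scaled to CPM and compared as log2 ratios after adding 5 CPM, for the 5562 genes outside the rule that averaged at least 20 CPM. A gene was called where it differed at least 2-fold in the same direction in both libraries. This held for 83 genes higher in members, 1.49% of those tested, and for 0 genes lower in members, 0% of those tested. Within a single library 87 genes were at least 2-fold higher under the serine/glycine-free diet and 108 under the control diet. The median log2 ratio over all tested genes was 0.03 and -0.01 in these libraries. Of the 83 genes, 55 belonged to the lists for antiviral genes, GTPases, antigen presentation and interferon signalling. Among the 5562 tested genes these lists held 40 antiviral, 13 GTPase, 21 class I, 1 class II and 12 signalling genes. The number 55 depends on which genes the lists name.

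**Figure D2:**
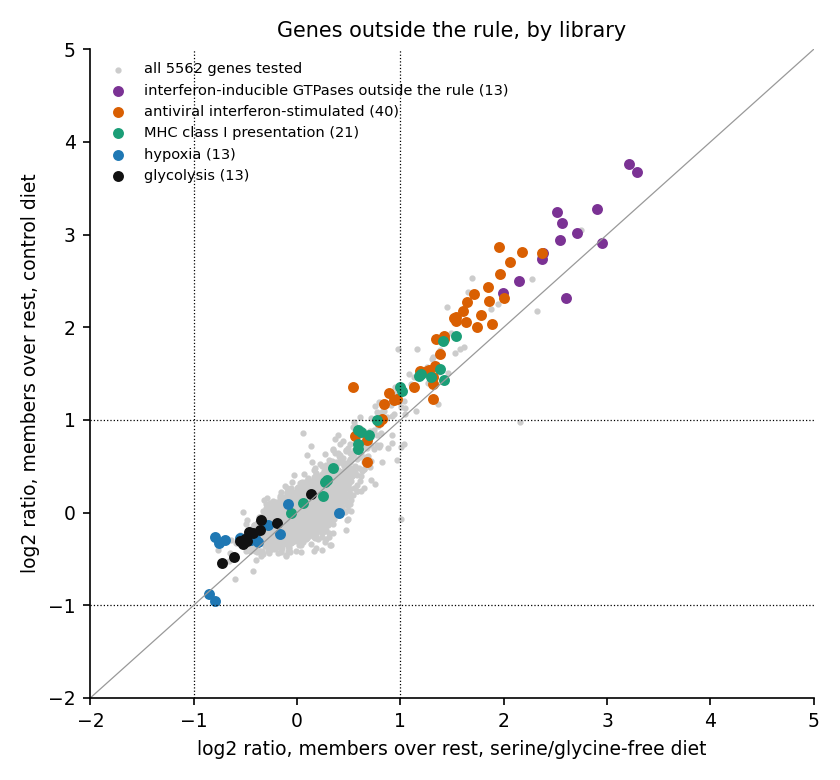
Log2 ratio of members over the rest in the serine/glycine-free library (horizontal) and the control library (vertical), 1 point per gene, with gene lists in colour, dotted lines at a 2-fold difference and the line of equality. GTPases reach a log2 ratio of 3.76, antiviral and antigen-presentation genes follow, and hypoxia and glycolysis genes lie mostly below 0 without passing the 2-fold lines in both libraries.

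Among effectors, the GTPases outside the rule had the highest ratios, in cells chosen mostly by other GTPases. With cells chosen by Ifit3 and Usp18 the order turned, with medians of 1.44 and 1.79 for the GTPase list and 1.63 and 2.01 for the antiviral list in the serine/glycine-free and control libraries. With the 7 rule genes all 13 genes of that list that passed the filter were called, with median log2 ratios of 2.56 under the serine/glycine-free diet (range 1.99 to 3.29) and 2.94 under the control diet (2.32 to 3.76). Summed over the list they reached 1826 CPM in members and 233 CPM in the rest under the serine/glycine-free diet, and 1756 and 151 CPM under the control diet. Gbp4 had 205 CPM (197 to 214) in members and 17.7 CPM (16.9 to 18.5) in the rest under the serine/glycine-free diet, and 224 CPM (213 to 236) and 11.9 CPM (11.3 to 12.6) under the control diet. Gbp2b (217 and 17.8 CPM, then 168 and 8.60 CPM in the same order), Gbp5 (66.7 and 4.27, then 48.3 and 2.07 CPM) and Gbp6 (110 and 10.3, then 106 and 6.45 CPM) followed the same pattern, with members above the rest in both libraries.

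The immunity-related GTPases, which coat the vacuoles of intracellular parasites, behaved alike. Irgm1, a regulator of the other members of that family, had 177 CPM in members and 29.9 CPM in the rest under the serine/glycine-free diet, and 186 and 22.5 CPM under the control diet. Irgm2 and Tgtp2, which carry the composite promoter element shown above, had log2 ratios of 2.15 and 2.50 (Irgm2) and of 2.52 and 3.24 (Tgtp2) in the serine/glycine-free and control libraries. Ifi47 stood at 2.37 and 2.74. Several of these genes have near-identical neighbours (Tgtp1 and Tgtp2, Gbp2 and Gbp2b, Gm4841 and Gm4951, Ifit3 and Ifit3b), between which reads may have been divided, so a single gene's level among such pairs is uncertain.

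The antiviral genes were next. Of the 56 genes on that list, 52 were in the matrices and 40 passed the filter, and 30 of the 40 were called higher against the 1.49% of all tested genes. All 40 were above the rest in both libraries, with a median log2 ratio of 1.40 under the serine/glycine-free diet and 1.87 under the control diet. Isg15, the ubiquitin-like modifier, had 675 CPM (660 to 690) in members and 203 CPM (201 to 206) in the rest under the serine/glycine-free diet, and 781 CPM (760 to 803) and 148 CPM (146 to 151) under the control diet. Ifit1, which binds viral RNA ends, had 209 and 50.5 CPM under the serine/glycine-free diet, and 166 and 18.4 CPM under the control diet. Zbp1, a sensor of Z-form nucleic acids that can trigger necroptosis, had 294 and 61.0 CPM under the serine/glycine-free diet, against 273 and 34.7 CPM under the control diet.

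Rsad2 (viperin, which makes a chain-terminating nucleotide) had log2 ratios of 2.06 and 2.70 in the serine/glycine-free and control libraries, Oasl2 of 1.96 and 2.57, and the RNA sensor Ifih1 (MDA5) of 1.61 and 2.17. The 10 antiviral genes that passed the filter without being called included Ifitm3, a membrane protein that blocks viral entry, which was abundant everywhere: 3510 CPM in members and 1986 CPM in the rest under the serine/glycine-free diet, and 3324 and 1644 CPM under the control diet. Ifih1, Ifitm3, Irgm2 and Irf7 are named after their values were seen.

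**Figure D3:**
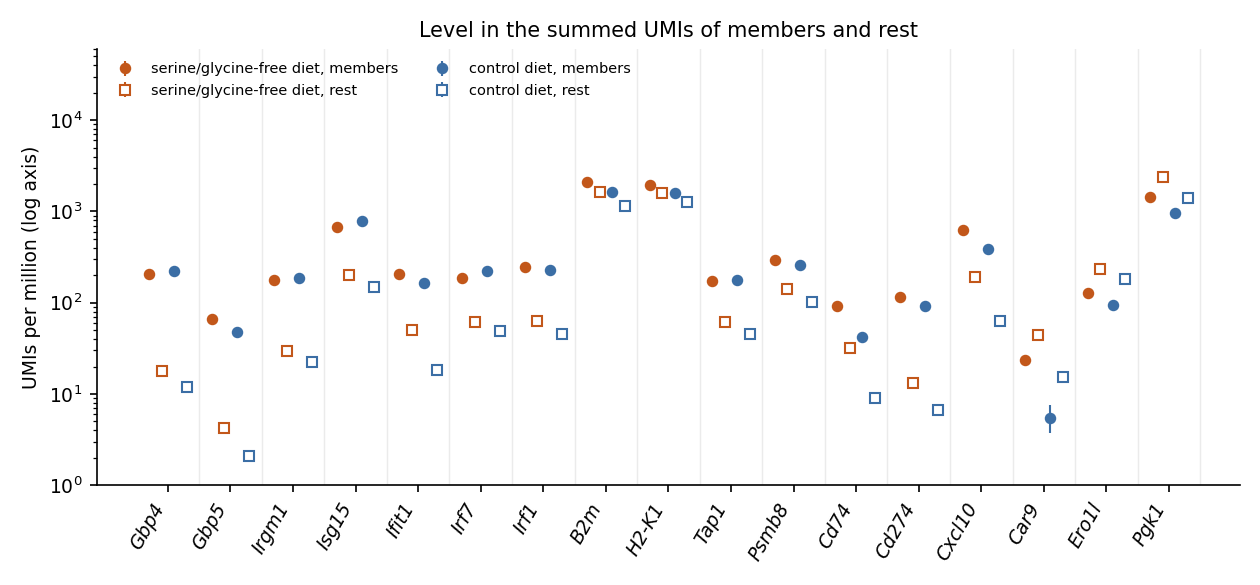
Summed level (CPM, log axis) of 17 genes in members (filled circles) and the rest of the gate (open squares) of the serine/glycine-free library (orange) and the control library (blue), with exact Poisson intervals that are mostly smaller than the symbols. Interferon-induced genes are higher in members in both libraries, B2m and H2-K1 differ little, and Car9, Ero1l and Pgk1 are lower in members.

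Of the 17 genes for sensing and signalling, 12 passed the filter and 3 were called, among them Irf1. Irf1, the transcription factor that carries the interferon gamma signal to many later genes, had 247 CPM in members and 63.7 CPM in the rest under the serine/glycine-free diet, and 227 and 45.6 CPM under the control diet. The receptors and kinases lay close to the rest: Ifngr1 had log2 ratios of 0.24 and 0.34, Ifngr2 of -0.17 and -0.18, Ifnar1 of 0.14 and 0.04 and Jak1 of 0.11 and 0.14 in the serine/glycine-free and control libraries. Among feedback genes Socs1, which blocks Janus kinases, was the 1 gene called of 9 tested (11.1%, against 1.49% of all tested genes). It had 131 CPM in members and 61.3 CPM in the rest under the serine/glycine-free diet, and 102 and 46.5 CPM under the control diet.

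Interferon transcripts were rare in these cells, though more frequent than in the rest. The 9 interferon genes summed to 5.12 CPM (3.91 to 6.57) in members and 1.24 CPM (1.03 to 1.47) in the rest under the serine/glycine-free diet, and to 4.02 CPM (2.63 to 5.90) and 0.0978 CPM (0.0469 to 0.180) under the control diet. Ifng had 1 UMI in serine/glycine-free members and 0 in control members, and the lambda interferons Ifnl2 and Ifnl3 had 0 in both. Ifnb1 (interferon beta) had 23 UMIs in members of the serine/glycine-free library and 24 in members of the control library, in 4 cells each. Ifna4 had 37 UMIs in 4 serine/glycine-free members and 0 in control members. Most of these UMIs thus came from a handful of cells, and none of the 9 genes passed the filter.

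Genes of antigen presentation differed widely in their ratios. Of 21 measured genes of MHC class I presentation, 9 (42.9%) were called, against 1.49% of all tested genes. The median log2 ratio of the 21 was 0.70 under the serine/glycine-free diet and 0.89 under the control diet. Among the immunoproteasome subunits, which trim proteins into peptides for display, Psmb10 had 369 CPM in members and 124 CPM in the rest under the serine/glycine-free diet, and 379 and 98.1 CPM under the control diet. Psmb9 and Psmb8 had log2 ratios of 1.20 and 1.49 (Psmb9) and of 1.02 and 1.31 (Psmb8) in the serine/glycine-free and control libraries. The peptide transporter Tap1 had 173 CPM in members and 62.0 CPM in the rest under the serine/glycine-free diet, and 178 and 45.7 CPM under the control diet, and Nlrc5, the transactivator of class I genes, had log2 ratios of 1.42 and 1.43.

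The class I chains B2m, H2-K1 and H2-D1 were not called. B2m had 2115 CPM in members and 1655 CPM in the rest under the serine/glycine-free diet, a ratio of 1.28 (1.26 to 1.29), and 1619 and 1162 CPM under the control diet, a ratio of 1.39 (1.37 to 1.42). H2-K1 and H2-D1 had log2 ratios between 0.27 and 0.35. The non-classical class I gene H2-T23, a ligand of NK cell receptors, had 85.7 and 29.9 CPM under the serine/glycine-free diet, against 51.9 and 14.5 CPM under the control diet. Of the class II genes Cd74, the invariant chain, was the 1 that passed the filter, with 91.6 and 32.2 CPM under the serine/glycine-free diet, and 42.4 and 9.11 CPM under the control diet. H2-Aa and the class II transactivator Ciita stayed under the filter, and 76.1% of the control members' H2-Aa UMIs came from 5 cells.

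Cd274, which encodes PD-L1 (chromosome 19, 29362107 to 29388095), had the highest ratio of any called gene outside the GTPases with the 7 rule genes. With cells chosen by Ifit3 and Usp18 its log2 ratios were 1.87 and 1.78 in the serine/glycine-free and control libraries, against 2.75 and 3.05 with all 7. It had 117 CPM (111 to 123) in members and 13.2 CPM (12.5 to 13.9) in the rest under the serine/glycine-free diet, and 92.4 CPM (85.1 to 100) and 6.75 CPM (6.26 to 7.27) under the control diet. The ratios were 8.88 (8.23 to 9.57) and 13.7 (12.2 to 15.3). Members were 12.8% and 6.84% of gate cells but held 50.5% of the gate's Cd274 UMIs in the serine/glycine-free library and 46.4% in the control library.

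Thinned to 5000 UMIs, 30.8% of serine/glycine-free members and 24.8% of control members had a Cd274 UMI. In the rest of the gate these shares were 5.50% and 3.22%, and in gate cells with a score of 0 they were 2.52% and 2.26%. Krt20-negative cells with a receptor contig had shares of 29.6% (21.2 to 39.2) of 108 cells and 24.5% (13.8 to 38.3) of 53 cells, after thinning had left out 110 and 185 shallower ones. Without thinning, 56.9% of serine/glycine-free members and 56.4% of control members had one, against 18.7% and 12.9% of the rest. The thinning left out 19 and 4 members. Ido1, which breaks down tryptophan, did not reach the filter but was detected after thinning in 6.82% of serine/glycine-free and 8.63% of control members, against 0.555% and 0.475% of the rest. In gate cells with a score of 0 these shares were 0.140% and 0.404%. Without thinning, 20.8% and 20.9% of members had an Ido1 UMI, against 3.36% and 2.37% of the rest.

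Of the chemokines, 2 of 3 tested genes were called, against 1.49% of all tested genes. Cxcl10, which attracts T and NK cells through CXCR3, had 625 CPM (611 to 640) in members and 190 CPM (188 to 193) in the rest under the serine/glycine-free diet, and 390 CPM (375 to 405) and 63.2 CPM (61.7 to 64.8) under the control diet. Ccl2, which attracts monocytes, had 251 and 88.5 CPM under the serine/glycine-free diet, against 358 and 72.7 CPM under the control diet. Cxcl9, another CXCR3 ligand, stayed under the filter, and 80.5% of its UMIs in serine/glycine-free members and 93.9% in control members came from 5 cells. Of 14 tested genes of cell death, 2 (14.3%) were called, against 1.49% of all tested genes. Both of them, Zbp1 and Xaf1, are also on the antiviral list. The inflammatory caspases Casp4 (0.91 and 1.16) and Casp1 (0.72 and 1.02) missed a log2 ratio of 1 in the serine/glycine-free library.

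Of the 83 called genes, 24 were in none of the functional lists. They included Batf2, an interferon-induced transcription factor with log2 ratios of 2.27 and 2.52 in the serine/glycine-free and control libraries, Ly6a (1.94 and 2.25), the deoxynucleotide-degrading Samhd1 (1.62 and 1.79), the tryptophanyl-tRNA synthetase Wars (1.34 and 1.39), the cytokine Il15 (1.16 and 1.77) and the purine-oxidising enzyme Xdh (1.58 and 1.76). Apart from Batf2 these genes are named after their values were seen. Fabp4, a fatty acid carrier of fat and endothelial cells, was among them at 2.32 and 2.17, but 5 cells held 94.4% of its UMIs in serine/glycine-free members and 99.1% in control members. The 6 endothelial markers summed to 37.1 CPM in members and 8.41 CPM in the rest under the serine/glycine-free diet, and to 14.7 and 4.08 CPM under the control diet. When the gate cells with 3 or more endothelial UMIs were left out, a setting added after seeing the data, Fabp4 had log2 ratios of -0.06 and 0.11, and 82 of the 83 calls were kept.

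Genes of hypoxia and glycolysis were mostly lower in members, none by 2-fold in both libraries. Car9 was more than 2-fold lower in the control library without the added 5 CPM, with a log2 ratio of -1.34 there when 1 CPM was added in place of 5. Of 13 tested hypoxia genes 11 were lower in both libraries and 0 higher. Their median log2 ratios were -0.45 under the serine/glycine-free diet and -0.28 under the control diet. Of 13 tested glycolysis genes 12 were lower and 1 (Hk1) higher, with medians of -0.48 and -0.29. All tested genes had medians of 0.03 and -0.01, with 5th percentiles of -0.23 and -0.24. How many of all tested genes were lower in both libraries was not counted. Ero1l, an oxidase of the endoplasmic reticulum, had 127 CPM (120 to 133) in members and 232 CPM (229 to 235) in the rest under the serine/glycine-free diet, and 95.3 CPM (88.0 to 103) and 180 CPM (177 to 183) under the control diet. Car9, the carbonic anhydrase used as a hypoxia marker, had 23.6 and 44.3 CPM under the serine/glycine-free diet, and 5.42 CPM (3.77 to 7.53) and 15.3 CPM under the control diet. Pgk1, a glycolytic kinase, had 1432 and 2385 CPM under the serine/glycine-free diet, and 970 and 1415 CPM under the control diet.

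The lactate exporter Slc16a3 (-0.61 and -0.48), the glucose transporter Slc2a1 (-0.55 and -0.31), Ldha (-0.52 and -0.34) and the mitophagy receptor Bnip3 (-0.70 and -0.30) lay on the same side in the serine/glycine-free and control libraries. Ero1l, Car9, Pgk1 and Slc16a3 were among the 12 lowest genes of all, with Fam162a (-0.65 and -0.44), a hypoxia-induced mitochondrial protein, and Klk10 (-0.60 and -0.72), a secreted protease. After thinning to 5000 UMIs, 6.82% of serine/glycine-free members and 2.16% of control members had a Car9 UMI, against 13.4% and 5.84% of the rest (13.7% and 6.74% of members, and 28.3% and 16.0% of the rest, without thinning).

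The hypoxia relation depended on which rule genes chose the cells. Chosen by the 5 GTPase genes, the top 10% had hypoxia medians of -0.60 under the serine/glycine-free diet and -0.44 under the control diet. Chosen by Ifit3 and Usp18, the top 10% had hypoxia medians of 0.34 and 0.09, with 0 of 13 genes lower in both libraries, and glycolysis medians of 0.05 and -0.05. Ero1l had log2 ratios of -1.01 and -1.14 with the GTPase choice, and of 0.34 and -0.30 with the Ifit3 and Usp18 choice. The overlap of these choices was partial: of the 560 serine/glycine-free and 313 control cells chosen by Ifit3 and Usp18, 246 and 121 were among the 591 and 282 members, whereas of the 596 and 277 chosen by the GTPases, 539 and 252 were.

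Each arm of the programme was nevertheless high in cells chosen by the other. In cells chosen by the GTPases Ifit3 had 89.4 CPM against 15.7 CPM in the remaining cells under the serine/glycine-free diet, and 130 against 9.84 CPM under the control diet. In cells chosen by Ifit3 and Usp18, Gbp2 had 451 CPM against 177 CPM under the serine/glycine-free diet, and 373 against 95.4 CPM under the control diet. With that choice the class I list had medians of 0.29 and 0.57, below those of the members, and the antiviral list had 1.63 and 2.01.

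**Figure D4:**
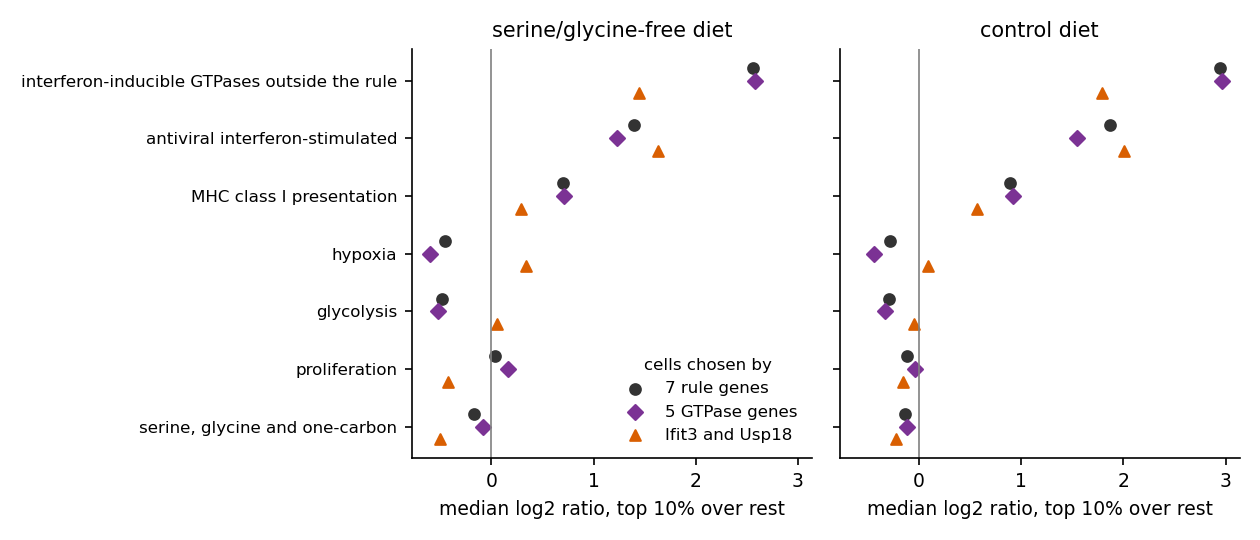
Median log2 ratio of 7 gene lists between the top 10% of gate cells and the rest, in the serine/glycine-free library (left) and the control library (right), for cells chosen by all 7 rule genes, by the 5 GTPase genes, or by Ifit3 and Usp18. Hypoxia lies below 0 for the first 2 choices and at 0.34 and 0.09 for the last.

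Genes of serine and glycine synthesis and the folate cycle were slightly lower in members, but not within classes of depth under the serine/glycine-free diet. Of 13 tested genes 10 were lower in both libraries, with medians of -0.17 under the serine/glycine-free diet and -0.14 under the control diet. All tested genes had medians of 0.03 and -0.01, with 5th percentiles of -0.23 and -0.24. The share of all tested genes that were lower or higher in both libraries was not counted. These counts, and those of the proliferation genes, thus have no background share. Within 4 classes of total UMIs the medians were 0.01 and -0.13, with 6 of 13 lower in both, and with cells chosen by Ifit3 and Usp18 they were -0.50 and -0.23. Psat1, a serine synthesis enzyme, had 126 CPM in members and 165 CPM in the rest under the serine/glycine-free diet, and 164 and 208 CPM under the control diet. Phgdh, the first enzyme of that route, had log2 ratios of -0.15 and -0.21. The direction of the proliferation genes depended on the setting. Their medians were 0.04 and -0.12 over 29 genes, with 13 lower and 6 higher in both libraries. With TMM scaling 24 were lower and 2 higher, and with cells chosen by Ifit3 and Usp18 27 were lower and 0 higher, with medians of -0.42 and -0.16. Mki67 had ratios of 0.19 and 0.02 on the log2 scale, and Cdc20, an activator of mitotic exit, of -0.59 and -0.33.

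Members were not uniform. Per cell, the GTPase list reached a median of 1624 CPM in serine/glycine-free members (10th to 90th percentile 804 to 3533), against 148 in the rest, and 1594 in control members (785 to 3292), against 77.5 in the rest. The antiviral list had medians of 10235 (5511 to 20719) in serine/glycine-free members and 9547 (5324 to 20826) in control members, against 4548 and 3310 in the rest. Members overlapped the rest far more in antiviral genes than in GTPases, an order favoured by a rule that drew mostly on GTPases. Above the 90th percentile of the rest lay 51.1% of serine/glycine-free and 66.3% of control members for the antiviral list, and 93.6% and 98.2% for the GTPase list.

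Members with an Ifit3 or Usp18 UMI after thinning to 5000 UMIs, 44.1% of serine/glycine-free and 46.4% of control members, differed from those without in antiviral genes above all. Ifit3 and Usp18 belong to the antiviral arm, so higher antiviral levels on that side were built into the split. All of these cells had also passed a score that drew mostly on GTPases, which limits how far their GTPase levels could differ. Isg15 stood at 1165 CPM in the serine/glycine-free members with such a UMI and 353 CPM in those without, and at 1302 and 376 CPM in the control members. Irf7, which amplifies type I interferon production, stood at 319 and 103 CPM under the serine/glycine-free diet, and at 373 and 102 CPM under the control diet. The summed GTPases differed little and not in one direction, with 1928 and 1759 CPM under the serine/glycine-free diet, and 1636 and 1837 CPM under the control diet. The summed class I list was nearly equal, at 11627 and 11523 CPM under the serine/glycine-free diet, and 10299 and 10107 CPM under the control diet. The hypoxia list was higher in the members with such a UMI, at 1751 and 1273 CPM under the serine/glycine-free diet, and 1159 and 759 CPM under the control diet.

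The programme graded continuously into the rest of the gate. Cells were put into 7 classes of rising score, from 0 through 4 classes of the rest to 2 classes of members. In the serine/glycine-free library Irf1 had 38.1, 35.6, 53.9, 67.4, 112, 192 and 306 CPM from the lowest to the highest class, and in the control library 28.0, 32.9, 45.4, 63.1, 99.1, 166 and 305 CPM. Cd274 had 6.09 CPM at a score of 0 and 174 CPM in the highest class under the serine/glycine-free diet, and 3.99 and 139 CPM under the control diet.

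The hypoxia list ran the other way. It had 2700, 2098, 2080, 1769, 1727, 1568 and 1350 CPM over the same classes in the serine/glycine-free library, and 1504, 1112, 1120, 1023, 890, 1021 and 825 CPM in the control library. In each of the 7 classes the serine/glycine-free library was higher than the control library. Median depth per class ranged from 17042 to 30921 UMIs in the serine/glycine-free library and from 19090 to 29394 UMIs in the control library. Computed within 4 classes of total UMIs, Ero1l had log2 ratios of -0.86 and -1.01.

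**Figure D5:**
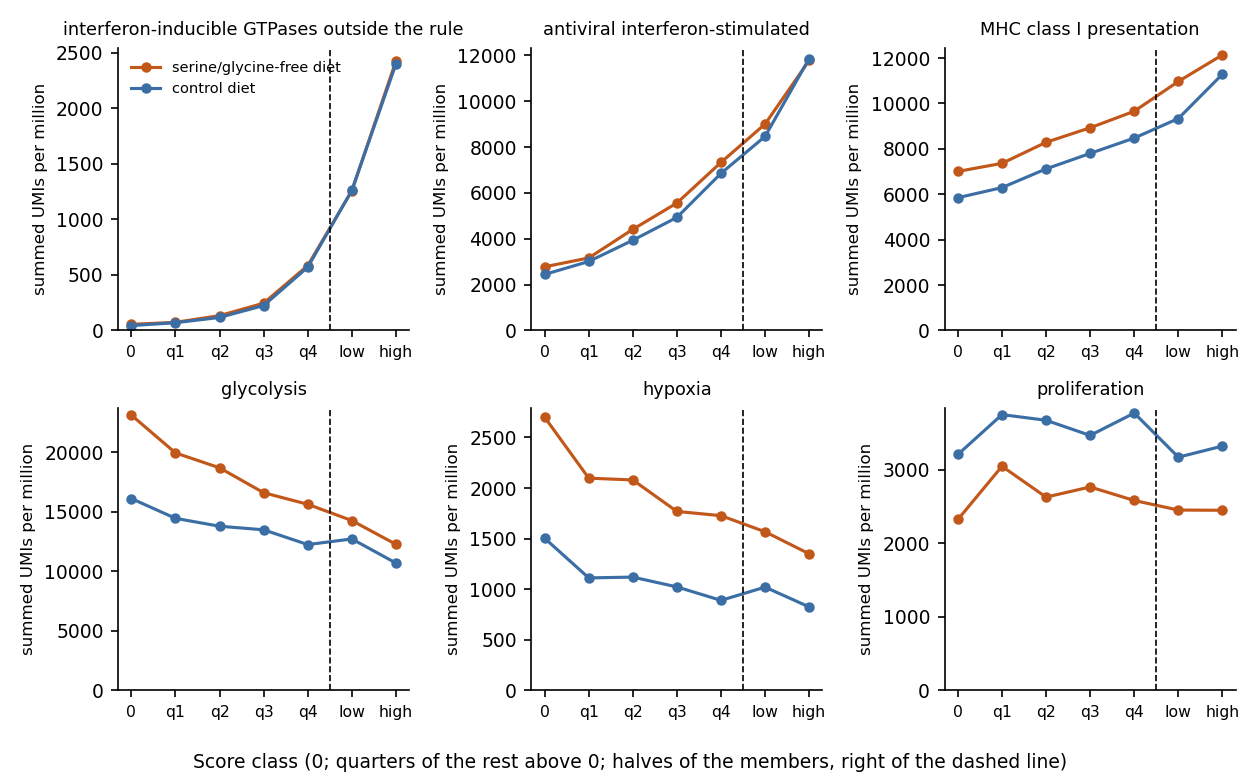
Summed CPM of 6 gene lists over 7 classes of rising score (0, 4 classes of the rest above 0, then 2 classes of members right of the dashed line) in the serine/glycine-free library (orange) and the control library (blue), all axes starting at 0. GTPases and antiviral genes climb to nearly the same level in both libraries, while hypoxia and glycolysis decline and stay higher under the serine/glycine-free diet.

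Once cells were members, the interferon programme hardly differed between diets. Within members the antiviral list had a median log2 ratio of serine/glycine-free over control of -0.04, with 17 genes above 0 and 23 below, and the class I list one of 0.02, where all tested genes had -0.06. Since the members were chosen by an absolute score common to both libraries, similar levels of genes that follow that score were built into the choice. Tap1 had 173 CPM in serine/glycine-free members and 178 CPM in control members, a ratio of 0.974 (0.906 to 1.05). Some genes departed from this: Ifih1 had 188 CPM in serine/glycine-free members and 121 CPM in control members, Cxcl10 625 and 390 CPM, and Ccl2 251 and 358 CPM.

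In the rest of the gate the antiviral list was higher in the serine/glycine-free library, with a median of 0.29 and 35 of 40 genes above 0, where all tested genes had -0.09. Isg15 had 203 CPM there in the serine/glycine-free rest and 148 CPM in the control rest, Ifit1 50.5 and 18.4 CPM, and Cxcl10 190 and 63.2 CPM. Over the whole gate Cd274 had 23.9 CPM in the serine/glycine-free library and 11.8 CPM in the control library, 2.02-fold apart (1.89 to 2.16).

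Most genes that differed at least 2-fold between the diets within members were outside the interferon lists, as are most of the genes tested. Of the 5562 genes, 32 (0.575%) were at least 2-fold higher and 3 (0.0539%) at least 2-fold lower in serine/glycine-free than in control members. Ddit4, a stress-induced inhibitor of mTORC1, had 188 CPM (180 to 196) in serine/glycine-free members and 42.3 CPM (37.4 to 47.6) in control members. The metal-binding metallothioneins Mt1 (7384 and 1988 CPM) and Mt2 (2745 and 746 CPM) were higher by similar factors. Fkbp5 (175 and 47.2 CPM), Tsc22d3 (328 and 98.1 CPM), Sgk1 (346 and 126 CPM) and Klf9 (84.0 and 29.3 CPM), all known as glucocorticoid-induced genes, and the transcription factor Cebpd (477 and 143 CPM) stood on the same side.

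Of the called genes in the interferon and antigen-presentation lists Cd74 was the 1 at least 2-fold higher in serine/glycine-free members, with 91.6 against 42.4 CPM. At least 2-fold lower in serine/glycine-free members were Anxa8, a calcium-binding annexin (31.5 and 71.5 CPM), and the adhesion selectins Sele (16.9 and 44.1 CPM) and Selp (23.3 and 53.6 CPM), which are named after their values were seen. Lower by less than 2-fold were the protease inhibitor Timp1 (522 and 910 CPM), and the mitotic genes Cdc20 (71.0 and 127 CPM) and Ccnb1 (39.1 and 69.3 CPM). The same direction was seen in the rest of the gate, where Mt1 had 6439 CPM in the serine/glycine-free library and 1731 CPM in the control library, Fkbp5 118 and 40.8 CPM, Ddit4 140 and 42.3 CPM, and Anxa8 27.1 and 65.7 CPM.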

How the data were processed

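Single-cell RNA and T cell receptor libraries of mouse tumours from 2 diets, 1 library each, were analysed. Per the file headers, the deposited matrices hold UMI counts per gene and barcode from Cell Ranger 7.1.0. Version 2.2.2 and build mm10 stand in the submitters' processing notes; the labels' extraction text describes human heart tissue, while organism and source name mouse tumours. Matrices hold barcodes the authors called cells, so empty droplets were not used here. Rows with the same symbol were added, and receptor and immunoglobulin genes were left out of sums. Members were compared with the rest as log2((CPM + 5)/(CPM + 5)) of summed counts, keeping genes whose mean reached 20 CPM, called at 2-fold in both libraries. Intervals are exact (Clopper-Pearson, Poisson, conditional binomial; 95%) and cover counting error. Doublets were not removed; Scrublet scores (scanpy 1.11.5) over 0.25 were left out as an alternative, as were other gates, choices of members, TMM factors (edgeR 4.0.16), pseudocounts and filters. Named genes were the 7 rule genes, the 15 highest and 12 lowest members-over-rest ratios, the 10 highest and 10 lowest diet ratios within members, up to 6 genes per list and a fixed set; other genes were named after their values were seen. Members, lists and rule were chosen with earlier results of these data known. Mx1, Mx2, Oas1b, Mnda, Gbp11, Gm12250 and Cxcl11 are not among the symbols of the matrices. Promoters are RefSeq's (GRCm38.p6, 250 bases before each start). The ratio and call steps were tested on simulated independent Poisson counts with planted differences. That simulation included neither the choice of members nor UMIs gathered in few cells, so it checks the arithmetic alone. Python 3.11.15, numpy 2.4.6, scipy 1.17.1, pandas 2.3.3 and R 4.3.3 were used. Values of 1 signalling gene are not reported here.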

Additional observations from a re-analysis of the deposited data

Results flagged for a closer look

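For 10 genes the interval of the ratio of members to the rest lay below 1 in one library and above 1 in the other. All 10 were genes of the functional or marker lists and stayed under the 20 CPM filter. A share over all genes is not given here, so the count and its make-up describe those lists. The difference between libraries was not tested. Most of the 10 are myeloid or leukocyte genes, which were below the rest in serine/glycine-free members and above it in control members. The ratios in the serine/glycine-free and control libraries were 0.292 and 1.52 for C1qa, 0.323 and 1.40 for C1qb, 0.404 and 1.37 for C1qc, 0.226 and 2.09 for Csf1r, 0.344 and 1.33 for Lyz2, 0.463 and 2.19 for Tyrobp, 0.472 and 2.19 for Fcer1g, and 0.674 and 1.47 for Coro1a. In control members 5 cells held 96.1% of the C1qa, 92.8% of the Lyz2 and 98.7% of the Tyrobp UMIs.

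Cxcl12, a chemokine of stromal cells, and Saa3, an acute-phase protein, ran the other way, with ratios of 1.81 and 0 for Cxcl12 and 3.65 and 0 for Saa3 in the serine/glycine-free and control libraries. Control members had 0 UMIs of both. In serine/glycine-free members 4 cells held all 42 Cxcl12 UMIs, and 5 cells held 99.2% of the 132 Saa3 UMIs.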

How the results depend on the processing

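The ratio of member shares between the diets was 1.60 when cells were chosen by Ifit3 and Usp18, and it is 1.0 by construction when 10% of each library are taken. The count of genes lower in members was 1 in place of 0, with Ero1l as that gene, for the top 5%, for the GTPase choice and for equal weights per cell. For the top 5% Car9 had log2 ratios of -1.30 and -1.57 but was not counted, as it fell under the 20 CPM filter. The antiviral median under the serine/glycine-free diet (1.40) was 1.20 for the top 20%, 1.23 for the GTPase choice, 1.63 for the Ifit3 and Usp18 choice and 1.24 with TMM, which moved the median of all genes to -0.14 there. With 10% of each library the antiviral diet median was 0.17 within members and 0.46 in the rest. The class I median under the serine/glycine-free diet was 0.29 for the Ifit3 and Usp18 choice. The count of higher genes ranged from 64 to 118, and 75 of the 83 calls were kept within 4 classes of depth. Of 9450 values of named genes under 18 alternatives, 298 changed sign. In 31 of these the value with the 7 rule genes was at least 2-fold, all 31 of Fabp4, Saa3 or macrophage genes. The others started from smaller differences, and for the Ifit3 and Usp18 choice they included Ero1l (0.34) and Pgk1 (0.17) under the serine/glycine-free diet and Car9 under both diets (0.44 and 0.17). The cause was not tested.

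Fabp4 in members over the rest was -0.84 under the serine/glycine-free diet and -0.64 under the control diet for the Ifit3 and Usp18 choice, -0.06 under the serine/glycine-free diet without endothelial-type cells, and under the control diet -0.58 for the top 5%, -0.39 without cells with immune UMIs and -0.30 with at least 2 Krt20 UMIs. Under the serine/glycine-free diet Saa3 was -0.24 with at least 2 Krt20 UMIs, and Lyz2 was 0.35 for the top 20%, 0.56 for the Ifit3 and Usp18 choice and 0.15 without cells with immune UMIs. The diet ratio within members, below 0 in the main setting, was 0.61 for C1qa, 0.64 for C1qb and 0.73 for C1qc for the top 5%, 0.42, 0.48 and 0.52 after thinning, 0.32, 0.46 and 0.49 for the GTPase choice, and 0.11, 0.17 and 0.12 for the Ifit3 and Usp18 choice. Without cells of high Scrublet score it was 0.38 for C1qa, 0.54 for C1qb, 0.51 for C1qc, 0.19 for Tyrobp, 0.27 for Fcer1g and 0.23 for Lyz2, and without cells with immune UMIs 0.24 for C1qb, 0.32 for C1qc and 0.16 for Lyz2. No paired analysis was possible because each diet had 1 library. Depth limits genes under 20 CPM, since members held 11923071 UMIs in the serine/glycine-free library and 6460776 in the control library.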

Other observations

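Genes of the immediate early response, which signalling switches on within minutes, and targets of NF-kappaB were slightly higher in the interferon-high cells in both libraries. Of 12 tested immediate early genes 11 were higher in members in both libraries and 1 was lower, with median log2 ratios of 0.32 under the serine/glycine-free diet and 0.30 under the control diet. Zfp36, which destabilises inflammatory transcripts, had 717 CPM in members and 467 CPM in the rest under the serine/glycine-free diet, and 354 and 212 CPM under the control diet. All 8 tested NF-kappaB targets were higher in both libraries, with medians of 0.28 and 0.28, among them the adhesion molecule Vcam1 (189 and 145 CPM, then 194 and 110 CPM in the same order). None of these genes reached a 2-fold difference in both libraries. All tested genes had medians of 0.03 and -0.01, with 95th percentiles of 0.43 and 0.38. How many of all tested genes were higher in both libraries was not counted.

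Genes of the response to amino acid shortage had no common direction in members. Of 12 tested genes 2 were higher and 6 lower in both libraries, with medians of -0.03 under the serine/glycine-free diet and -0.15 under the control diet. The matching shares of all tested genes were not counted. Asns, asparagine synthetase, had 126 CPM in members and 150 CPM in the rest under the serine/glycine-free diet, and 171 and 195 CPM under the control diet. Among ligands of NK cell receptors, Clec2d had log2 ratios of 0.95 and 1.36 and the stress ligand Ulbp1 of 0.52 and 0.02.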
